A study of Mus musculus with 2 samples.

Results

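The proteasome genes described here are the subunits, caps and assembly factors of the proteasome, without the immunoproteasome. Most are constitutive, but the tissue-restricted Psma8 and Psmb11 are among them. Members were the probe sets whose only annotated gene symbol was Psma, Psmb, Psmc, Psmd, Psme or Psmg followed by digits, less Psmb8, Psmb9, Psmb10, Psme1 and Psme2. The rule gave 91 of 45037 non-control probe sets and 42 of 18193 named genes, and 77 of these probe sets and 41 of these genes gave a measured signal. Psmc3ip and Psme3ip1, whose symbols only begin in the same way and whose products are not proteasome subunits, were kept apart. RNA came from LM8, labelled highly metastatic and a subline, and from Dunn, its non-metastatic parental line. Both are mouse osteosarcoma cell lines without further treatment, grown in the same medium with 10% serum. Each line was hybridised once to an Affymetrix expression array, so there are 2 arrays in all, no difference has a replicate check and no p-value can be given. LM8 is a single derivative, so metastatic ability and the other differences between the lines cannot be told apart.

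The proteasome degrades proteins that carry ubiquitin chains. Its barrel-shaped 20S core is a stack of 4 rings, in which alpha subunits form the gates and beta subunits line the chamber, and 3 of the beta subunits cut peptide bonds. The 19S cap has a base, whose ring of ATPases unfolds the substrate and feeds it into the core, and a lid, which removes the ubiquitin. Dedicated chaperones assemble core and base, and other caps can replace the 19S particle. Tumour cells, which make much protein, lean on this machine, and inhibitors of its core are in clinical use against myeloma. Transcription of the subunits is known to be driven together, in mammals mainly by the factor Nfe2l1 acting on antioxidant response elements in their promoters.

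Signals are MAS5 values, a linear brightness per probe set. The osteoblast lineage genes Alpl, Col1a1, Col1a2, Sparc and Sp7 were far above the detection floor on both arrays, with Sp7, the transcription factor of bone-forming cells, at 743 in LM8 and 687 in Dunn. The other 2 of 7 measured markers of this lineage were also above the floor but at least 2-fold lower in LM8, Ibsp with 96.6 in LM8 and 239 in Dunn, and Pth1r with 492 in LM8 and 1115 in Dunn. Of 9 macrophage markers 6 were measured. All 6 were lower in LM8 on their brightest probe set, beside 6545 of 11830 measured genes. Adgre1, Cd68, Fcgr1 and Lyz2 lay under the LM8 floor and counted as measured only through Dunn, so the filter fixed their direction. Another Csf1r probe set had a log2 ratio of 0.48. The 9 macrophage signals summed to 135 in LM8 and 277 in Dunn, and Ptprc, Itgam and Aif1 lay under the floor on both arrays. The part of such cells in the proteasome signals was not tested, and in bulk RNA fewer cells of a type and less RNA per cell cannot be told apart. Endothelial, epithelial and lymphoid markers summed to 113, 71.8 and 98.6 in LM8, against 189, 86.5 and 118 in Dunn. The ratio of 3' to 5' signal, a measure of RNA integrity, was 0.789 in LM8 and 0.708 in Dunn for Gapdh, and 1.16 in LM8 and 1.26 in Dunn for beta-actin.

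Proteasome transcripts were higher in LM8 across nearly the whole particle, each by a modest amount. Of the 41 measured genes, 38 had a higher signal in LM8 and 3 a lower one (Psma4, Psma8 and Psmb1), whereas 44.7% of all 11830 measured genes were higher. The median log2 ratio of LM8 over Dunn was 0.48, or 1.39-fold, against -0.08 for all measured genes. At least 1.5-fold higher were 17 proteasome genes (41.5%), where the same held for 15.3% of measured genes. At least 1.5-fold lower was 1 (Psma8), beside 20.3% of measured genes. Only Psma5 was at least 2-fold higher, and no proteasome gene was at least 2-fold lower, beside 6.51% and 8.84% of measured genes. How the 2-fold share stands to that of all genes turned with the scaling. It was 2.44% for the proteasome genes as given, but 14.6% (6 genes), against 8.66% of all genes, when arrays shared a median. With scaling on hybridisation controls it was 19.5% (8 genes), against 10.5% of all genes. In these settings the median log2 ratio was 0.63 and 0.72 for the proteasome genes and 0.07 and 0.16 for all genes. The quartiles of the log2 ratios of the proteasome genes were 0.35 and 0.71.

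These were bright genes. Their signals ran from 92.8 to 4348 in LM8 and from 151 to 2612 in Dunn, and none was at the floor of its array, 18.96 for LM8 and 21.06 for Dunn. Psmb11, the remaining gene, encodes a catalytic subunit of cortical thymic epithelium and lay below both floors, at 4.29 in LM8 and 2.87 in Dunn. The 5892 measured genes at least as bright as the dimmest proteasome gene had a median log2 ratio of 0.00, and 15.9% of them were at least 1.5-fold higher. For want of replicate arrays, the spread of a gene was taken between its probe sets, whose SD of the log2 ratio had a median of 0.30 over 5521 genes. The differences of Psma4, Psmb1, Psmb3, Psmd8, Psmg2 and Psmg4 were smaller than that. Where 1 array lay under its floor, the floor took the place of its signal in the ratio.

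**Figure D1:**
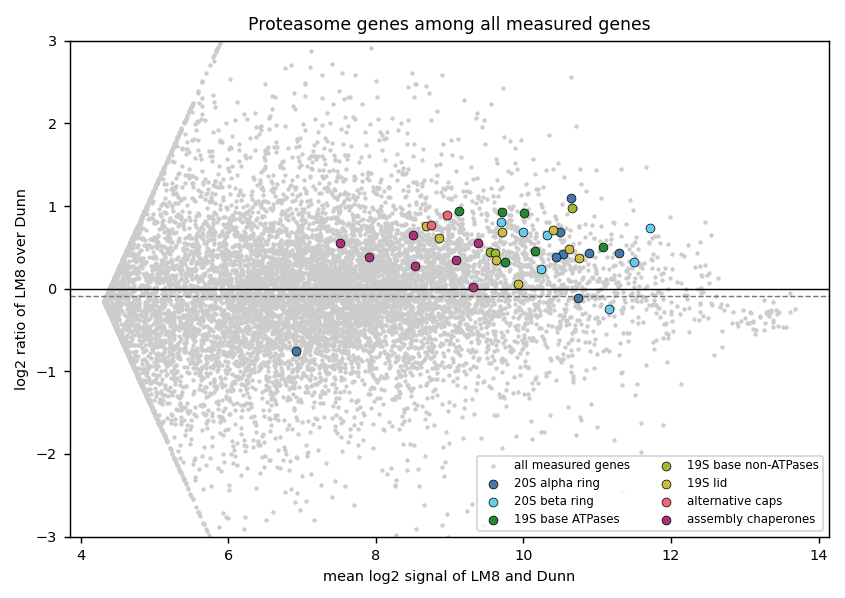
Each grey point is 1 of 11830 measured genes, with the mean log2 signal of both arrays across and the log2 ratio of LM8 over Dunn upwards, and coloured points are the 41 proteasome genes by class. The dashed line is the median of all measured genes (-0.08), 69 genes lie beyond the plotted range of 3 log2 units, and 38 proteasome genes lie above 0.

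The alpha ring forms the gate of the core and the docking surface for caps. Of its 8 genes 6 were higher in LM8, 2 were at least 1.5-fold higher, and the median log2 ratio was 0.43. Psma5 had the largest ratio of all proteasome genes, with signals of 2347 in LM8 and 1093 in Dunn, a 2.15-fold difference. A second Psma5 probe set gave 1209 in LM8 and 672 in Dunn, or 1.80-fold, so both went the same way but only the brighter passed 2-fold. Psma2 followed with 1833 in LM8 and 1144 in Dunn (1.60-fold). The next 4 genes lay close together, between 1.30-fold for Psma1 and 1.35-fold for Psma6. Psma1 had 1593 in LM8 and 1222 in Dunn, Psma3 had 2921 in LM8 and 2161 in Dunn, Psma6 had 2202 in LM8 and 1627 in Dunn, and Psma7 had 1720 in LM8 and 1287 in Dunn.

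Among the alpha subunits 2 went the other way. Psma4, a constitutive subunit of the core, had 1641 in LM8 and 1774 in Dunn, a log2 ratio of -0.11. This ratio turned positive with arrays scaled to a common median (0.04) or on the hybridisation controls (0.13). Psma8 encodes a testis-specific alpha subunit that takes the place of Psma7 in germ cells. Its single probe set was dimmer than the brightest probe set of any other measured proteasome gene, with 92.8 in LM8 and 156 in Dunn, 1.69-fold lower in LM8. Without Psma8 and Psmg2 the median over the remaining 39 proteasome genes was 0.50.

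The beta ring holds the cutting sites, and all 3 catalytic genes were more than 1.5-fold higher in LM8. Psmb5, the chymotrypsin-like subunit and main target of clinical inhibitors, had a signal of 1288 in LM8 and 801 in Dunn (1.61-fold). Psmb6, the caspase-like subunit, had 1597 in LM8 and 1020 in Dunn (1.57-fold). Psmb7, the trypsin-like subunit, had 4348 in LM8 and 2612 in Dunn (1.66-fold). The catalytic genes thus differed by nearly equal folds, each on 1 probe set.

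The structural beta genes were more uneven. Psmb2 had 1093 in LM8 and 627 in Dunn, 1.74-fold higher and the largest ratio of the ring. Psmb4 had 3234 in LM8 and 2597 in Dunn (1.25-fold). Psmb3 had 1311 in LM8 and 1116 in Dunn (1.18-fold), and 1.42-fold on its second probe set. Psmb1 was the exception, with 2103 in LM8 and 2494 in Dunn, a log2 ratio of -0.25. Both dimmer Psmb1 probe sets were also lower in LM8, with log2 ratios of -0.50 and -0.53, which made Psmb1 the 1 gene with several measured probe sets that were all lower. The median over the 7 measured beta genes was 0.65.

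**Figure D2:**
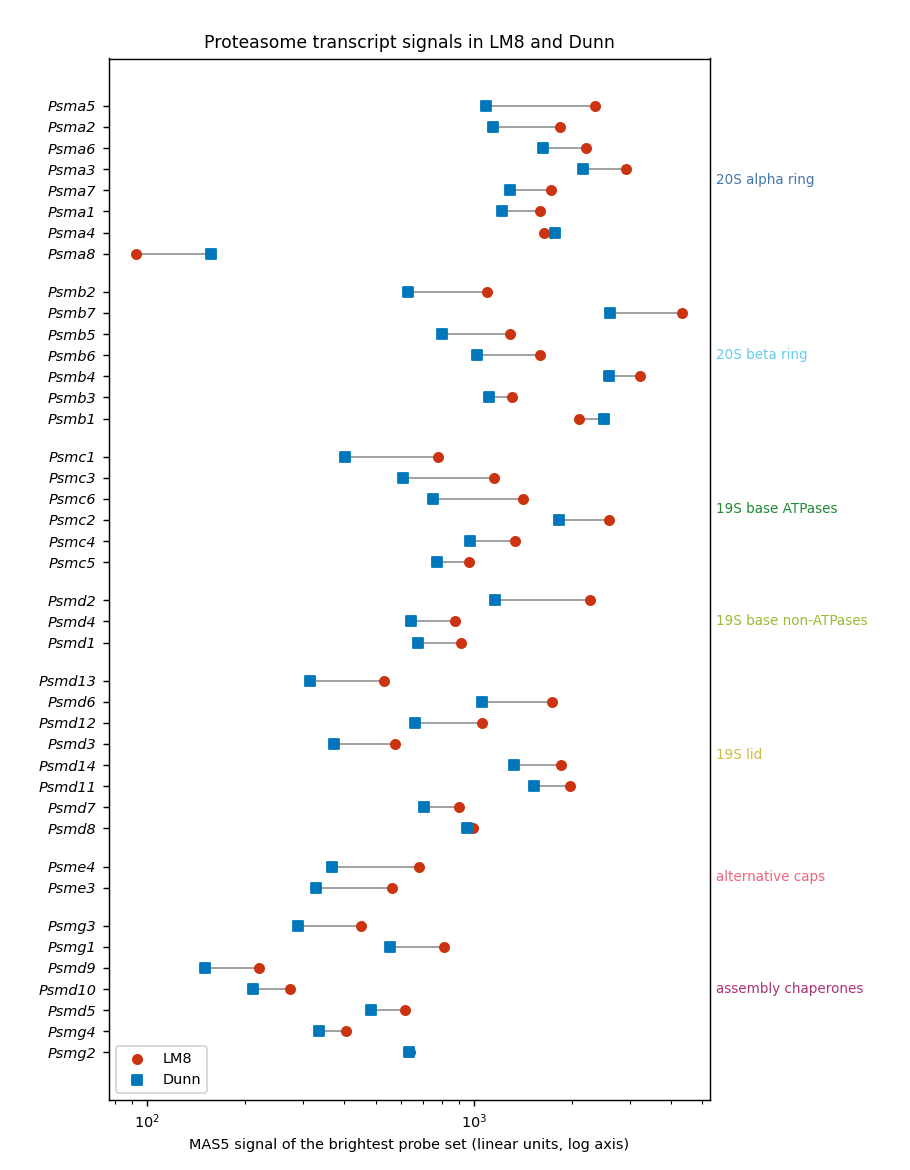
MAS5 signal of the brightest probe set of each measured proteasome gene on a log axis, with LM8 as red circles and Dunn as blue squares, grouped by class and ordered by ratio within it. LM8 lies to the right of Dunn for 38 of 41 genes, and to its left for Psma4, Psma8 and Psmb1.

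The 6 ATPases of the base were all higher in LM8 and fell into a higher and a lower set of 3. Psmc1 had signals of 777 in LM8 and 405 in Dunn (1.92-fold). Psmc3 had 1156 in LM8 and 607 in Dunn (1.91-fold), and Psmc6 had 1418 in LM8 and 749 in Dunn (1.89-fold). These 3 genes stood above 92.6% to 92.8% of all measured genes, although none reached 2-fold. Psmc2 had 2585 in LM8 and 1823 in Dunn (1.42-fold), Psmc4 had 1331 in LM8 and 974 in Dunn (1.37-fold), and Psmc5 had 966 in LM8 and 770 in Dunn (1.25-fold). The gap between the sets was not sharp on every probe set, since the second Psmc4 probe set was 1.61-fold higher and the second Psmc6 probe set 1.47-fold. The median log2 ratio of the ATPase genes, 0.71, was the highest among the core and 19S classes.

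The non-ATPase base subunits receive ubiquitinated substrates. Psmd2, the docking site of shuttle factors, had 2271 in LM8 and 1159 in Dunn (1.96-fold), the second largest ratio of all proteasome genes. Its other measured probe set was dim, at 7.62 in LM8 and 25.8 in Dunn, and went the opposite way. Psmd4, a receptor for ubiquitin chains, had 875 in LM8 and 643 in Dunn (1.36-fold), with 1.32-fold on a second bright probe set and a log2 ratio of -0.49 on a dim one. Psmd1, a large scaffold protein, had 913 in LM8 and 676 in Dunn (1.35-fold).

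All 8 lid genes that the naming rule matched were higher in LM8 on their brightest probe set, 4 of them by at least 1.5-fold. Their median log2 ratio was 0.55. Psmd13 had 530 in LM8 and 314 in Dunn (1.68-fold), Psmd6 had 1731 in LM8 and 1056 in Dunn (1.64-fold), Psmd12 had 1057 in LM8 and 660 in Dunn (1.60-fold), and Psmd3 had 573 in LM8 and 373 in Dunn (1.53-fold). These are scaffold subunits of the lid. On its second, dimmer probe set Psmd6 had 95.7 in LM8 and 92.7 in Dunn (1.03-fold). With its probe sets averaged the log2 ratio of Psmd6 was 0.38. Psmd14, the metalloprotease that cleaves ubiquitin from the substrate, had 1852 in LM8 and 1328 in Dunn (1.39-fold), and its partner Psmd7 had 898 in LM8 and 703 in Dunn (1.28-fold).

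Within the lid, Psmd11 and Psmd8 were the least settled in direction. Psmd11, a subunit that clamps lid to core, had 1970 in LM8 and 1523 in Dunn on its brightest probe set (1.29-fold), but its other bright probe sets gave log2 ratios of 0.29, 0.07 and -0.03. A dim Psmd11 probe set had 24.7 in LM8 and 49.5 in Dunn, and with all probe sets averaged the log2 ratio was -0.06, so the direction of this gene is not settled. Psmd8 had 994 in LM8 and 953 in Dunn, a log2 ratio of 0.06 that was -0.01 with quantile normalization. The 17 genes of the 19S cap that the naming rule matched were all higher on their brightest probe set, with a median log2 ratio of 0.50. Of 15 core genes 12 were higher, with a median of 0.43. The lid subunit Sem1, outside the rule, was lower in LM8, with log2 ratios of -0.26 and -0.36 on its probe sets. No test of this difference between cap and core was possible.

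Of the caps that can replace the 19S particle, the rule kept Psme3 and Psme4, and both were among the larger differences. The cap gene Psme1, left out with the immunoproteasome, had 410 in LM8 and 348 in Dunn (1.18-fold). Psme3, the nuclear activator of ubiquitin-independent degradation, had 560 in LM8 and 328 in Dunn (1.70-fold), and 310 in LM8 and 238 in Dunn on its second probe set (1.30-fold). Psme4, a large nuclear activator linked to acetylated histones, had 681 in LM8 and 368 in Dunn (1.85-fold). Its next probe sets gave 486 in LM8 and 306 in Dunn (1.59-fold), and 242 in LM8 and 194 in Dunn (1.25-fold). The bright probe sets of both cap genes agreed in direction and varied in size, while the dim Psme4 probe sets were near or under the floors, with 20.9 in LM8 and 16.3 in Dunn on one and 16.4 in LM8 and 21.4 in Dunn on another.

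All 7 assembly factors were higher in LM8, with a median log2 ratio of 0.38. The core chaperones work in pairs. In the first pair, Psmg1 had 812 in LM8 and 552 in Dunn (1.47-fold), and Psmg2 had 639 in LM8 and 633 in Dunn on its brightest probe set, a log2 ratio of 0.02 (-0.03 with lowess centring), but 539 in LM8 and 356 in Dunn on the second (1.52-fold). In the second pair, Psmg3 had 452 in LM8 and 289 in Dunn (1.57-fold), and Psmg4 had 407 in LM8 and 336 in Dunn (1.21-fold). Only Psmg3 passed 1.5-fold, and the 2 probe sets of Psmg2 do not settle its size.

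The remaining 3 chaperones hold ATPases during assembly of the base. Psmd9 had 221 in LM8 and 151 in Dunn (1.47-fold). Psmd10, known as gankyrin and also a binding partner of the retinoblastoma protein, had 275 in LM8 and 211 in Dunn (1.30-fold). Psmd5 had 615 in LM8 and 484 in Dunn (1.27-fold).

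Agreement between probe sets depended on brightness. Of 58 measured probe sets of these genes with a signal of at least 100 on an array, 54 were higher in LM8, beside 49.4% of all such probe sets. The other 4 belonged to Psma4, Psma8, Psmb1 and Psmd11. Of 19 probe sets under 100 on both arrays, 8 had a log2 ratio above 0 and 11 below 0, beside 41.9% above 0 among all such probe sets. For 2 of these 11, of Psmg3 and Psme4, the signal itself was higher in LM8, and the ratio was negative because the floor of Dunn is the higher one. By signal alone 10 of the 19 were higher and 9 lower. Of 22 proteasome genes with several measured probe sets, 13 had all of them higher in LM8 (59.1%), beside 27.2% of all such genes, 8 were mixed and Psmb1 was lower throughout. By signal alone, without the floor, 14 were higher on all and 7 mixed, since Psmg3 then went one way. The mixed genes were Psma6, Psmd2, Psmd4, Psmd7, Psmd11, Psmd13, Psme4 and Psmg3. In all of them the brightest probe set was higher in LM8 and a probe set under 100 on both arrays had a negative ratio, for Psmg3 through the floor. A dim probe set of Psmd13 had 10.2 in LM8, under the floor, and 42.6 in Dunn, against 1.91-fold higher on a second bright probe set. Another dim Psmd13 probe set was higher in LM8, with 33.8 in LM8 and 24.8 in Dunn. For Psma6 the probe sets gave log2 ratios of 0.44, 0.44 and -0.11. A dim probe set of Psmd7 had 6.90 in LM8 and 22.7 in Dunn. Another dim Psmd7 probe set had 22.3 in LM8 and 19.8 in Dunn, under the Dunn floor, with a log2 ratio of 0.08. The dim probe set of Psmg3 had 19.9 in LM8, just above the LM8 floor, and 17.4 in Dunn, under the Dunn floor.

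**Figure D3:**
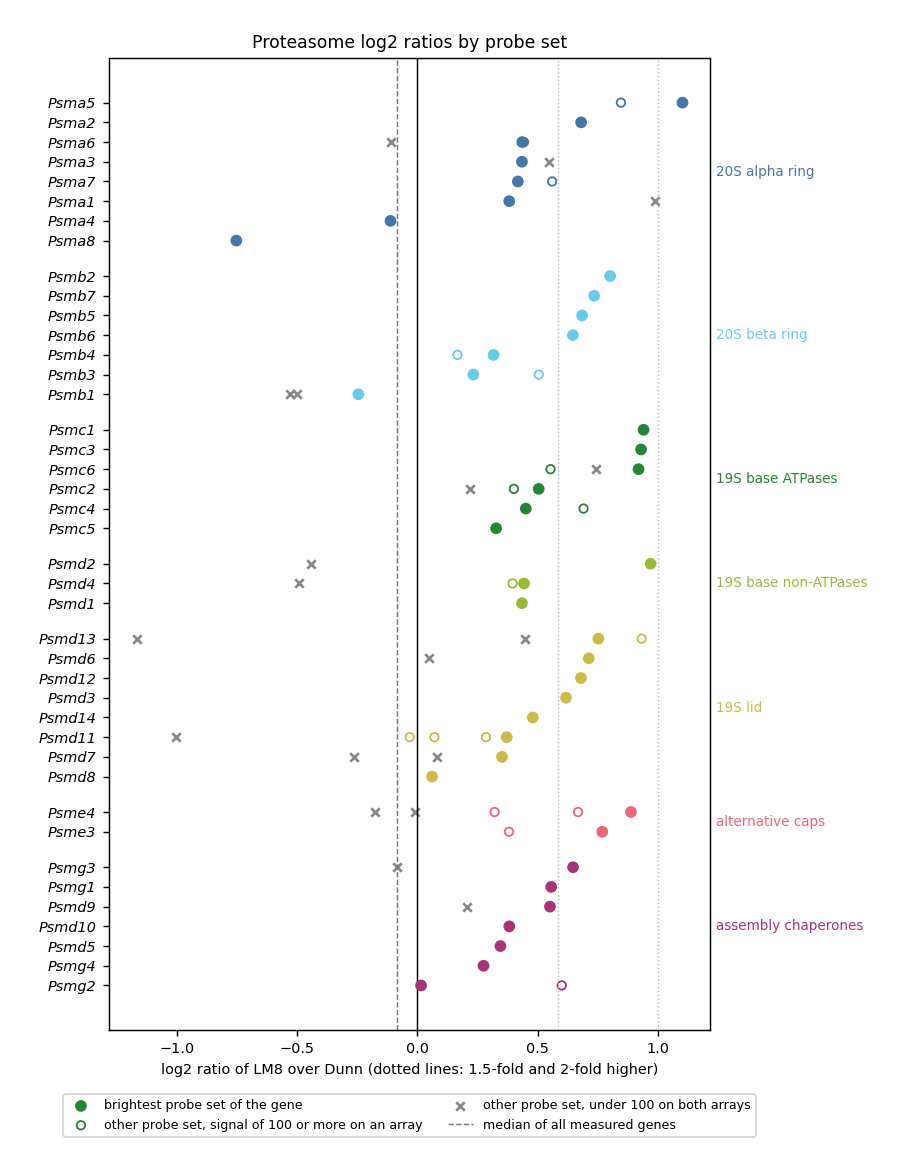
Log2 ratio of LM8 over Dunn for each of 77 measured probe sets of the proteasome genes, grouped by class, with filled circles for the brightest probe set of a gene, open circles for others of at least 100 on an array, and grey crosses for those under 100 on both arrays. Dotted lines mark 1.5-fold and 2-fold higher, and the filled circles lie right of 0 except for Psma4, Psma8 and Psmb1.

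Promoters were examined because the genes differed in the same direction and their known activator Nfe2l1 binds the antioxidant response element, whose core is TGACNNNGC. RefSeq windows of 300 bases around the annotated start (GRCm38.p6) were at hand for 33 of the 41 measured genes. On either strand, 6 of these 33 genes held the core. Counted by window it was in 17.1% of their 35 windows, beside 12.4% of 32851 windows of all genes, a share not far above the background. The 6 genes were Psmb5, Psmb6, Psmc6, Psmd9, Psmd12 and Psme4. Their median log2 ratio was 0.68, and 5 of 6 were at least 1.5-fold higher, while the 27 without it had a median of 0.44, with 8 at least 1.5-fold higher. Whether the element has a part in these ratios was not tested, and measured genes without a window are not in these counts. The CCAAT box was searched on both strands as a second promoter motif. It was in 12 of 33 genes, in 34.3% of their 35 windows and in 37.4% of all windows. Genes with and without it had medians of 0.44 and 0.56. No match says only that these letters are not in this window. The first letters of the antioxidant core, TGAC, also begin the cAMP response element, so a match can belong to either.

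Shown here are the windows of the catalytic subunit genes Psmb5 and Psmb6 and of the cap gene Psme4, with the core in capitals, and that of Psma5, which had the largest ratio and no match. They run 5′ to 3′ on the gene's strand, and the core begins 47 bases before the annotated start in Psmb5, 9 bases before it in Psmb6 and 7 bases before it in Psme4, where it lies on the opposite strand. The windows are chr14:54617946-54618245 (minus strand) for Psmb5, chr11:70525107-70525406 (plus strand) for Psmb6, chr11:30771525-30771824 (plus strand) for Psme4 and chr3:108256676-108256975 (plus strand) for Psma5.
Psmb5: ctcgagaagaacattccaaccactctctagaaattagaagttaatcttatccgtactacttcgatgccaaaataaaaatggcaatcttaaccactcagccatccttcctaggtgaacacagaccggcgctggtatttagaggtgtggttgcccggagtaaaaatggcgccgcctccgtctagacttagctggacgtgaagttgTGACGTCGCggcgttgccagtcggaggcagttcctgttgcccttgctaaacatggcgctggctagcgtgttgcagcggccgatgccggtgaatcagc
Psmb6: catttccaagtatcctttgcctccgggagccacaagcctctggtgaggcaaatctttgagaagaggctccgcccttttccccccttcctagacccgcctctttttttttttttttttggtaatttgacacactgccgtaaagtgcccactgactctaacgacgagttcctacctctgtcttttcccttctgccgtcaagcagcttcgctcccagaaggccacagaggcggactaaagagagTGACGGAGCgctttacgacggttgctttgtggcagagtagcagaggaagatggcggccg
Psme4: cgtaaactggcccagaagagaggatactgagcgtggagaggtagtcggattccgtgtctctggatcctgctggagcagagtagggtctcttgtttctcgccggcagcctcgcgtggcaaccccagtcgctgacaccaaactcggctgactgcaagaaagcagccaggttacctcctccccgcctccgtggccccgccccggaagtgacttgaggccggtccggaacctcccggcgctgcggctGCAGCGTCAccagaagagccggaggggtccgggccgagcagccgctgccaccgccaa
Psma5: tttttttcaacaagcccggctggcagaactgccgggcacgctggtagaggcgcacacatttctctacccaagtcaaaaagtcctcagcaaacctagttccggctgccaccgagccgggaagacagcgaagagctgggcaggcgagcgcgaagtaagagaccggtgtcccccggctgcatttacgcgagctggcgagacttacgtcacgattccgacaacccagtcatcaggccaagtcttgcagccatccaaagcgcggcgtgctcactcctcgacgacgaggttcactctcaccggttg

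The other proteasome genes fell into those that followed the subunits and those that did not. Of 8 listed parts and partners outside the naming rule 6 were measured, and 4 were at least 1.5-fold higher, beside 15.3% of measured genes. Uchl5, a deubiquitinase of the base, had 1016 in LM8 and 403 in Dunn (2.52-fold on 1 probe set). Ecpas, which tethers cap to core, had 424 in LM8 and 213 in Dunn (1.99-fold), but -0.54 in log2 ratio on its lowest probe set. The deubiquitinase Usp14 had 684 in LM8 and 385 in Dunn (1.78-fold), with probe sets from -0.12 to 0.97 in log2 ratio. Pomp, the chaperone that matures the core, had 1959 in LM8 and 1183 in Dunn (1.66-fold). Sem1, the smallest lid subunit, had 2344 in LM8 and 2797 in Dunn, a log2 ratio of -0.26. Psmf1, which binds the core and was first described as an inhibitor, had 225 in LM8 and 265 in Dunn, and all 4 of its probe sets were lower in LM8, down to a log2 ratio of -1.39. Adrm1 and Paaf1 were not analysed here.

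Immunoproteasome genes, which interferon induces, had ratios on both sides of 0. The products of Psmb8, Psmb9 and Psmb10 replace the catalytic subunits, whereas Psme1 and Psme2 encode a cap. Psmb8 had 580 in LM8 and 460 in Dunn (1.26-fold), but a log2 ratio of -0.34 on its dimmer probe set, and Psme1 had 410 in LM8 and 348 in Dunn (1.18-fold). Psmb9 had 250 in LM8 and 351 in Dunn (1.40-fold lower in LM8), and Psmb10 had 88.2 in LM8 and 103 in Dunn (1.17-fold lower). Their median log2 ratio was 0.01, and none of the 4 was 1.5-fold apart. Psme2 was not analysed here.

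Regulators of proteasome genes showed no common direction. Of 13 measured, 1 was at least 1.5-fold higher (Nfyb, a CCAAT-binding subunit, with 285 in LM8 and 172 in Dunn) and 3 were at least 1.5-fold lower (Stat3, Syvn1 and Foxo4), with a median log2 ratio of -0.05. Over all measured genes the shares were 15.3% higher and 20.3% lower. Nfe2l1 itself had 323 in LM8 and 467 in Dunn, a log2 ratio of -0.53. Its relative Nfe2l2 had 610 in LM8 and 487 in Dunn (1.25-fold). Ngly1, which deglycosylates the Nfe2l1 protein for activation, had 157 in LM8 and 154 in Dunn. The segregase gene Vcp had 2157 in LM8 and 1896 in Dunn (1.14-fold), and a log2 ratio of 0.55 on its second probe set. Nfe2l1 is regulated largely through its protein, which these arrays do not measure.

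Among genes that bring substrates to the proteasome, 2 of 8 measured shuttle and segregase genes were at least 1.5-fold higher and none was 1.5-fold lower. The same held for 15.3% and 20.3% of all measured genes. Ufd1, a cofactor of the segregase, had 441 in LM8 and 190 in Dunn (2.32-fold). The shuttle gene Rad23b had 1313 in LM8 and 658 in Dunn (1.99-fold), with probe sets from -0.40 to 1.62 in log2 ratio. Ubqln4 had 245 in LM8 and 165 in Dunn (1.48-fold). Of the ubiquitin genes and activating enzymes listed only Uba6 was measured, with 211 in LM8 and 140 in Dunn (1.51-fold), and the other 5 were not analysed here.

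Other large complexes give a scale for the proteasome genes. The COP9 signalosome, built on the same plan as the lid, had 6 of 9 genes higher in LM8, 2 of them by at least 1.5-fold (Cops4 and Cops6), and a median log2 ratio of 0.28. The translation factor eIF3, a further relative of the lid, had 4 of 11 genes higher and a median of -0.22, with Eif3h at 2346 in LM8 and 4443 in Dunn. The cytosolic CCT chaperonin had 4 of 8 genes higher and a median of 0.01, with Cct3 alone at least 1.5-fold higher. Of all measured genes 44.7% were higher in LM8 and 15.3% at least 1.5-fold higher. No test of the differences between these complexes was possible with 1 array per line.

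**Figure D4:**
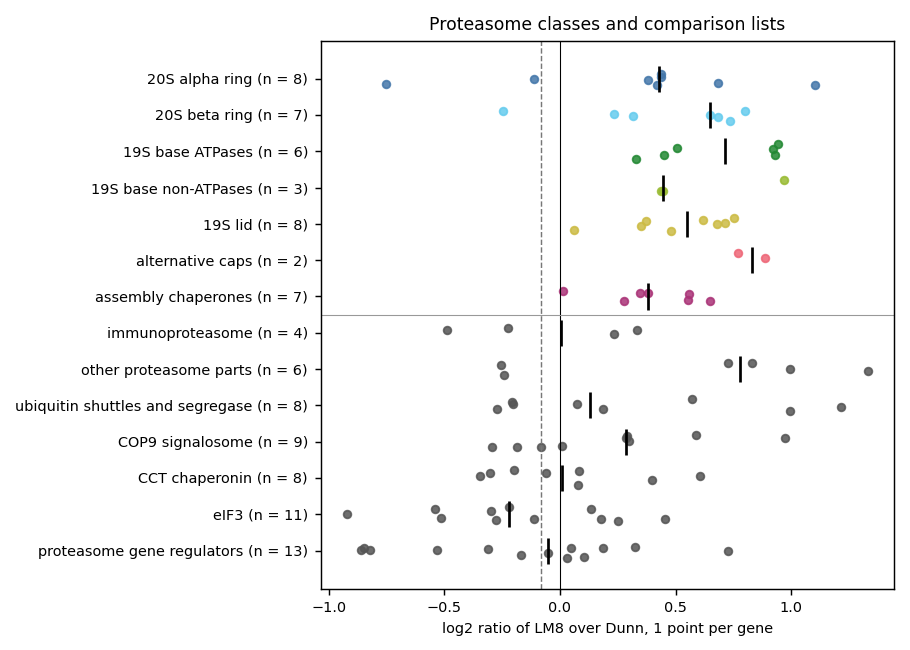
Log2 ratio of LM8 over Dunn, 1 point per measured gene, for the 7 classes of proteasome genes (upper part, coloured) and 7 comparison lists (lower part, grey), with black bars at the medians and a dashed line at the median of all measured genes. The class medians lie between 0.38 and 0.83, and those of the immunoproteasome, CCT chaperonin and eIF3 genes at 0.01, 0.01 and -0.22. The other proteasome parts have a median of 0.78, within the range of the classes. The COP9 signalosome lies at 0.28, the ubiquitin shuttles and segregase at 0.13 and the regulators at -0.05.

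Psmc3ip, a factor of meiotic recombination, was set apart because its symbol only resembles that of a subunit. It had 251 in LM8 and 184 in Dunn (1.37-fold), and a log2 ratio of 1.45 on its second probe set. Psme3ip1, set apart in the same way, had 193 in LM8 and 341 in Dunn, a log2 ratio of -0.82.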

How the data were processed

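The values deposited by the authors are linear intensity values per probe set, computed with MAS5 per the submitters' processing notes. Its version and settings are not given in the sources used here. Both arrays were scaled to the same 2% trimmed mean over non-control probe sets, a factor of 1.00 for each. The floor was each array's median, and a probe set was measured if either array lay above its floor. A gene was represented by its brightest measured probe set (mean log2 signal). Names came from the platform's annotation, updated by gene identifier, which matched for 99.4% of probe sets with 1 symbol. The 932 probe sets with several symbols named no gene. With 1 array per line, differences were counted at 2-fold and 1.5-fold beside all measured genes. The number of arrays sets the limit on precision. The steps were tested on simulated data. All proteasome genes are named, and listed genes only where their ratios were largest or a short count needed them. Members, lists and the 1.5-fold count were chosen with earlier results of these data known. Python 3.11.15, numpy 2.4.6, pandas 2.3.3, statsmodels 0.14.6 and matplotlib 3.10.9 were used.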

Additional observations from a re-analysis of the deposited data

How the results depend on the processing

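The proteasome median stayed above 0 in all 11 alternatives tried, from 0.38 with probe sets averaged to 0.72 with scaling on 12 hybridisation controls, and 0.47 to 0.64 above the median of all genes. Scaling moved the counts: at least 2-fold higher were 6 genes with a common array median (14.6%, beside 8.66% of all genes), 8 with the controls (19.5%, beside 10.5%), 0 with probe sets averaged, 0 without _s_at, _x_at and _a_at probe sets, and 0 where every probe set had to pass. At 1.5-fold the count was 17 higher and 1 lower, 26 higher with the common median and 32 with the controls, beside 20.7% and 24.9% of all genes. It fell to 12 with probe sets averaged (29.3%, beside 13.3% of all genes) and to 16 with lowess centring (39.0%, beside 16.4%). Without _s_at, _x_at and _a_at probe sets it was 15 of 35 (42.9%, beside 15.1%). The alternative caps fell to a median of 0.46 with probe sets averaged. Of 443 values of single genes, 9 moved by more than the spread between probe sets. Of these, 7 moved with probe sets averaged and 2 without _s_at, _x_at and _a_at probe sets. Many of the 443 could not move. Raising or removing the floor, or leaving genes out, changed no value of a remaining gene. The common median and the controls shifted all genes alike, by less than that spread. The count is therefore no measure of stability. Psma4 changed sign with the common median (0.04) and the controls (0.13), Psmd8 with quantile normalization (-0.01), Psmg2 with lowess centring (-0.03) and Psmd11 with probe sets averaged (-0.06). Leaving out chromosome 18 genes Psma8 and Psmg2, and the background of equally bright genes, were chosen after seeing the data. No paired analysis was possible because each line has 1 array, and no array could be left out.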
